A study of Mus musculus with 28 samples.

Results

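The genes described here are the 2 corticosteroid receptors and 7 genes whose transcription glucocorticoids are known to raise, and they were read in RNA-seq of the mouse amygdala. They were taken by symbol from a fixed list, namely *Nr3c1*, *Nr3c2*, *Fkbp5*, *Sgk1*, *Tsc22d3*, *Hsd11b1*, *Cdkn1a*, *Pdk4* and *Sult1a1*. All 9 were present in the count tables of both batches and passed the minimum of 10 counts on average, so they are 9 of the 16266 genes tested. The mice were adult C57BL/6J females from 2 batches, housed singly and offered a pair of bottles. Water mice (n = 10, of which 4 came from batch 1 and 6 from batch 2) had water in both bottles throughout, Acute mice (n = 9, 4 and 5) had a single access to 20% ethanol beside water at the end of the same schedule, and Chronic mice (n = 9, 3 and 6) had 20% ethanol beside water every other day for weeks. RNA came from micropunches of both sides, aimed at the central and basolateral amygdala. Brains were taken early in the light phase after brief isoflurane, with the bottles left in the cage until then. Each library is 1 mouse and holds all cell types in its punches. The total count was between 20004380 and 22569562 per mouse, with a median of 20184479.5 for Water, 20361343 for Acute and 20864334 for Chronic mice. The labels give no corticosterone value, and a circulating hormone level was not analysed here.

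Corticosterone, the main glucocorticoid of mice, enters cells and binds 2 related receptors. The mineralocorticoid receptor, encoded by *Nr3c2*, binds it tightly and is occupied at resting levels of the hormone, whereas the glucocorticoid receptor, encoded by *Nr3c1*, has a lower affinity and is occupied during stress and at the daily peak. Without hormone the glucocorticoid receptor waits in the cytoplasm in a chaperone complex. With hormone it moves to the nucleus, binds DNA as a dimer and recruits coregulators that raise or lower transcription. The amygdala takes part in fear, anxiety and the stress response, and genes such as *Fkbp5*, *Sgk1* and *Tsc22d3* are commonly read in brain as indicators of recent glucocorticoid exposure.

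The dimer's usual DNA site is a palindrome of half-sites 3 bases apart, and the sequence before the start of *Sgk1* shows what it looks like. RefSeq promoter windows of GRCm38.p6, which run from 250 bases before to 50 bases after a transcript start, were matched for 8 of the 9 genes (16 windows, of which 6 for *Sgk1* and 3 for *Tsc22d3*), and *Nr3c1* had no entry. The palindrome, AGAACA and TGTTCT with any 3 bases between them, reads the same on both strands and was found in 3 of 32851 windows (0.00913%), and 1 of those was an *Sgk1* window. A looser form, GNACA and TGTNC with any 3 bases between them, contains every match of the first and was found in 156 windows (0.475%), again with 1 *Sgk1* window among the 16. A single half-site, TGTTCT on either strand, was found in 19.0% of all windows and in 5 of the 16, namely 3 of *Sgk1*, the 1 window of *Sult1a1* and 1 of *Tsc22d3*. Only upstream bases outside annotated exons are shown, in the direction of transcription. Only genes with a match in a window are shown, and for *Sgk1* only the window with the palindrome. The choice thus rests on the letters and not on expression, and a match does not describe a bound site.
*Sgk1*, chr10:21993640-21993889, plus strand, with the palindrome in capitals: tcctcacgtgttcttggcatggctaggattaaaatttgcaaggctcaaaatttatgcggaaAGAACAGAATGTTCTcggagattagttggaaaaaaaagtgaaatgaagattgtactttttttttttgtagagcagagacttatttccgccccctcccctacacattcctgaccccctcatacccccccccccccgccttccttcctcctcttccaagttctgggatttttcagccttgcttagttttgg
*Sult1a1*, chr7:126676433-126676668, minus strand, with both half-sites in capitals: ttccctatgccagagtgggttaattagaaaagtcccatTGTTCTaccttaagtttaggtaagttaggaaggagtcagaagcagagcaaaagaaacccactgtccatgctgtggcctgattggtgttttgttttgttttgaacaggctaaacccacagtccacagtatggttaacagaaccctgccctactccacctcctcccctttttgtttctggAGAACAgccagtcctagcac
*Tsc22d3*, chrX:140600660-140600772, minus strand, with the half-site in capitals: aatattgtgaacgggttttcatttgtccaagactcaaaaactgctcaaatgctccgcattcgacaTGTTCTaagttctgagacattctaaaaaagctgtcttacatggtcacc
The *Sgk1* palindrome began 189 bases before the transcript start at position 21993890 of chromosome 10. The windows of *Nr3c2*, *Fkbp5*, *Hsd11b1*, *Cdkn1a* and *Pdk4* held no half-site, which says only that these letters were not in the windows listed.

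All 9 genes were detected in every mouse, with median levels from 0.978 to 12.7 on a common scale. That scale is CPM (a gene's count relative to the library size, scaled by TMM) per kilobase of exon. The exon lengths join every exon annotated in GENCODE M21, which understates genes that mostly use short transcripts. The 2 receptors and *Sgk1*, a kinase that acts on ion channels and transporters, stood highest. *Nr3c1* (chromosome 18, 39410545 to 39519421) had a median of 12.7 CPM per kilobase over 28 mice (range 11.3 to 14.0), above 78.2% of the genes tested. *Sgk1* (chromosome 10, 21882184 to 21999903) had a median of 8.88 (6.11 to 16.0) and *Nr3c2* (chromosome 8, 76899442 to 77245012) one of 8.39 (7.48 to 9.28). *Nr3c1* was above *Sgk1* in 26 of 28 mice, whereas *Sgk1* was above *Nr3c2* in only 18, and the ranges of *Sgk1* and *Nr3c2* overlapped.

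*Tsc22d3* (chromosome X, 140539528 to 140600659), which encodes the anti-inflammatory protein GILZ, came next at 6.50 CPM per kilobase (5.24 to 9.41). *Nr3c2* was above it in 25 of 28 mice, and it was above *Fkbp5* in 28 of 28. *Fkbp5* (chromosome 17, 28399094 to 28517527), a co-chaperone that lowers the receptor's affinity for hormone, had 3.40 (2.86 to 4.11). *Cdkn1a* (chromosome 17, 29090976 to 29100727), an inhibitor of cyclin-dependent kinases, had 3.33 (2.49 to 4.01). *Sult1a1* (chromosome 7, 126672865 to 126676432), a sulfotransferase of phenolic compounds, had 2.57 (1.85 to 4.37), and *Pdk4* (chromosome 6, 5483351 to 5496309), a kinase that switches off pyruvate dehydrogenase, had 2.27 (1.71 to 3.93). These 4 genes had overlapping ranges, with each neighbour in this order above the next in 16, 21 and 20 of 28 mice. *Hsd11b1* (chromosome 1, 193221634 to 193264075), the reductase that regenerates corticosterone inside cells, was lowest at 0.978 (0.606 to 1.42), below *Pdk4* in 28 of 28 mice and above 22.9% of the genes tested. All 9 positions are from GRCm38, and all 9 genes are protein coding. Exons of *Sult1a1* overlap those of *Sgf29* on the other strand (mean 8.09 CPM), those of *Nr3c2* overlap the non-coding *Gm10649* (mean 1.56 CPM), and those of *Cdkn1a* overlap *AC167363.2*, which was not among the genes tested. Whether the libraries kept strand was not given in the sources used here, so reads of these pairs cannot be told apart.

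**Figure D1:**
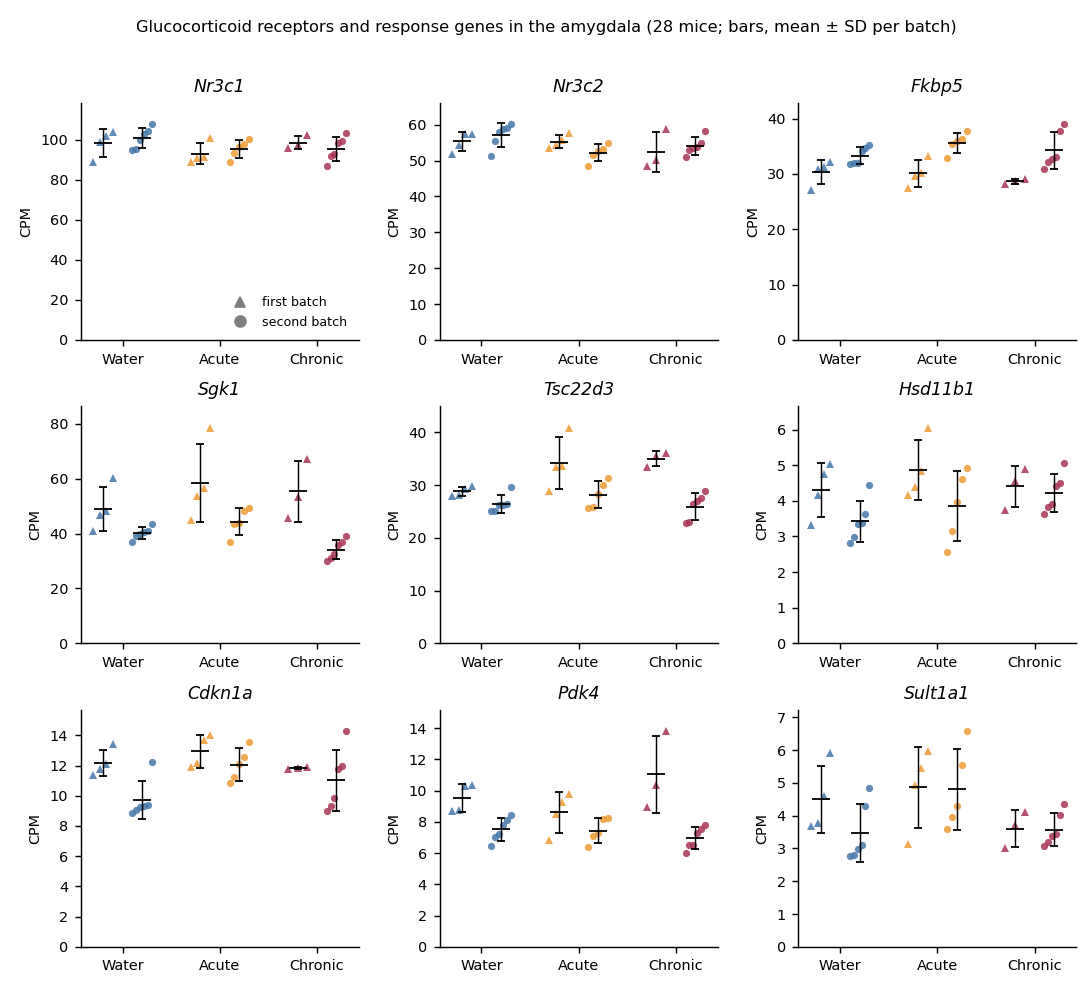
Normalised expression (CPM, from 0) of the 9 genes in 28 mice, by drinking group, with first-batch mice as triangles and second-batch mice as circles; bars are the mean ± SD of a group within a batch. Groups overlapped within batches for every gene, apart from *Tsc22d3* in the first batch, where 3 Chronic mice (33.4 to 36.1 CPM) lay above 4 Water mice (27.9 to 29.7 CPM).

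The first comparison asked how the genes stood after a single session of ethanol. None of the 9 passed the test between Acute and Water mice. edgeR's quasi-likelihood test called 0 of 9 at an adjusted p under 0.05 (adjusted p between 0.43 and 0.818), and 0% of the 16266 genes. After ComBat-seq DESeq2 also called none of the 9. With batch as a covariate it called none of the 5 genes to which it gave an adjusted p, and it gave none to *Hsd11b1*, *Cdkn1a*, *Pdk4* and *Sult1a1*. Before adjustment 4 of 9 had p under 0.05 by edgeR (5 of 9 by DESeq2), 3 of them with a higher mean in Acute mice and 1 with a lower mean, beside 9.52% of all genes (5.07% higher and 4.45% lower). That count was 1 in the first batch alone, beside 1171 of 16447 genes, and 3 in the second, beside 824 of 16059 genes. Leaving out 1 mouse gave 2 to 5 of the 9, with 2 without Water 40, Water 5 or Water 6, and 1107 to 1919 of all genes. The log2 fold change was positive for 6 and negative for 3 of the 9, with a median of 0.16 beside 0.0011 over all genes tested. In 8 of 9 genes the difference had the same sign in both batches, among them *Nr3c2* with only −0.00071 in the first batch. The share of all genes with the same sign in both batches was not counted, so this count has no background beside it. The values of Acute and Water mice did not separate for any of the 9 in either batch, beside 4.09% of all genes in the first and 0.418% in the second.

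*Cdkn1a* had the smallest p of the 9. In the first batch it stood at 11.8, 11.4, 12.1 and 13.4 CPM in Water mice and at 11.9, 12.1, 14.0 and 13.7 CPM in Acute mice. In batch 2 Water mice ranged from 8.84 through a median of 9.30 to 12.2 CPM, and the Acute mice had 13.6, 12.6, 12.1, 10.8 and 11.2 CPM. The groups overlapped in both batches, in the second only through 1 Water mouse at 12.2 CPM. On the log2 scale the fold change was 0.22 ± 0.077 (SE; 95% interval 0.060 to 0.37; adjusted p = 0.43 by edgeR), a ratio of 1.16, and 7 of 9 Acute mice lay above the Water mean of their batch. The exact two-sided permutation test within batches gave p = 0.00584 before any adjustment. The batch differences were 0.086 and 0.32 on the log2 scale.

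*Tsc22d3* had first-batch values of 29.3, 27.9, 28.2 and 29.7 CPM in Water and of 40.9, 28.9, 33.4 and 33.7 CPM in Acute mice. In the second batch Water mice ranged from 25.1 through a median of 26.2 to 29.6 CPM, and Acute mice had 25.8, 28.3, 30.03, 31.3 and 25.7 CPM. Of the first-batch Acute mice 3 were above every Water mouse, while 2 of the second-batch Acute mice were below the Water median, so the groups overlapped. The estimated log2 fold change was 0.16 ± 0.060 (95% interval 0.033 to 0.28; adjusted p = 0.462 by edgeR; exact permutation p = 0.0145), with 7 of 9 Acute mice above the Water mean. The highest Acute value, 40.9 CPM, belonged to the mouse that was also highest for *Sgk1*.

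*Sult1a1* had the largest log2 fold change of the 9 and also the widest interval. Its first-batch values were 3.70, 4.60, 3.79 and 5.91 CPM in Water and 5.98, 3.13, 4.93 and 5.45 CPM in Acute mice. In batch 2 it ranged from 2.79 through 3.05 to 4.84 CPM in Water mice and was 3.96, 5.55, 4.31, 6.58 and 3.61 CPM in Acute mice. Both the lowest and the highest of these first-batch values were from Acute mice, and in the second batch 2 Water mice lay among the Acute mice. The fitted log2 fold change was 0.31 ± 0.14 (95% interval 0.030 to 0.60; adjusted p = 0.498 by edgeR), and the exact permutation p was 0.078. The difference was 0.099 in the first and 0.45 in the second batch, so it came mostly from the second. With 54 to 138 counts per mouse in these 2 groups, *Sult1a1* carried more counting error than the receptors.

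*Nr3c1* was the 1 gene of the 4 with a lower mean in Acute mice, and the difference was small. It stood at 104.0, 98.88, 88.67 and 101.8 CPM in first-batch Water mice and at 100.9, 90.82, 88.96 and 91.46 CPM in first-batch Acute mice. Second-batch Water mice ranged from 94.95 through 101.4 to 107.6 CPM and Acute mice had 100.5, 93.15, 89.07, 96.31 and 98.06 CPM. The groups overlapped in both batches, yet 8 of 9 Acute mice lay below the Water mean. Its log2 fold change was −0.081 ± 0.036 (95% interval −0.16 to −0.0064; adjusted p = 0.501 by edgeR; exact permutation p = 0.0432), and the batch differences were both −0.079. The other receptor, *Nr3c2*, had a log2 fold change of −0.073 ± 0.038 (95% interval −0.15 to 0.0051; adjusted p = 0.553), at 53.6 ± 2.55 CPM in Acute (SD, n = 9) and 56.4 ± 3.03 CPM in Water mice (SD, n = 10), and the batch differences were −0.00071 and −0.13.

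The remaining 4 genes had unadjusted p above 0.05 in this comparison. *Sgk1* averaged 50.6 ± 11.96 CPM (SD, n = 9) in Acute and 43.7 ± 6.74 CPM (SD, n = 10) in Water mice, with a log2 fold change of 0.18 ± 0.093 (95% interval −0.0046 to 0.37; adjusted p = 0.532 by edgeR), or 0.12 without Acute 33, the mouse at 78.5 CPM. *Hsd11b1* had a log2 fold change of 0.17 ± 0.12 (−0.065 to 0.41), *Fkbp5* one of 0.052 ± 0.045 (−0.040 to 0.14) and *Pdk4* one of −0.078 ± 0.091 (−0.26 to 0.11). For *Fkbp5* the interval held no difference beyond 0.14 on the log2 scale in either direction, at 33.2 ± 3.50 CPM in Acute (SD, n = 9) and 32.1 ± 2.31 CPM in Water mice (SD, n = 10). In these punches, fewer cells of a type and less RNA per cell cannot be told apart.

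**Figure D2:**
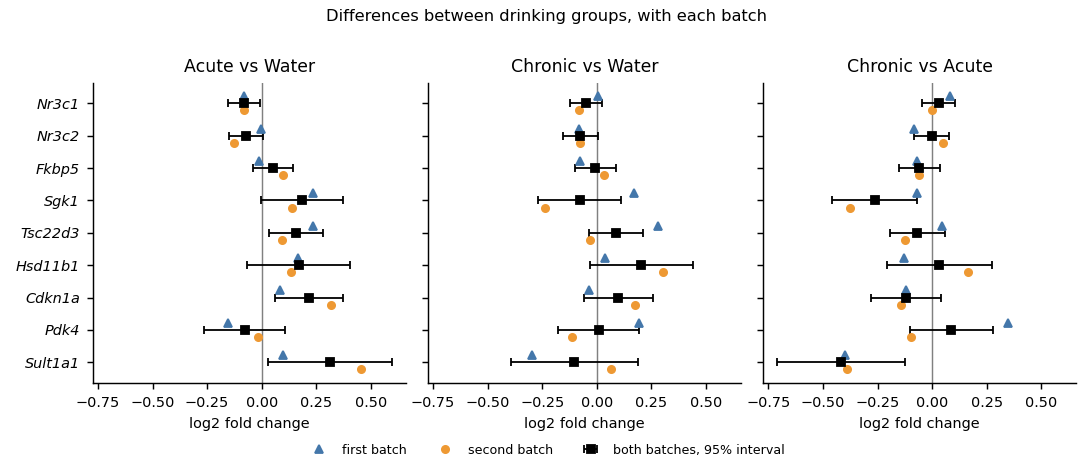
Log2 fold changes of the 9 genes in the 3 comparisons, with squares and 95% intervals for both batches together and triangles and circles for the batch differences of mean log2 CPM. For Acute against Water 8 of 9 genes had the same sign in both batches, for Chronic against Water 2 of 9, and the share over all genes was not counted.

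The second comparison asked the same of mice that drank for weeks, and it shares its Water mice with the first. None of the 9 genes passed the test. edgeR called 0 of 9 (adjusted p between 0.495 and 0.981), beside 3 of 16266 genes (0.0184%). DESeq2 called 0 of 5, both with batch as a covariate and after ComBat-seq, and gave no adjusted p to *Hsd11b1*, *Cdkn1a*, *Pdk4* and *Sult1a1*. At an unadjusted p under 0.05 there were 0 of 9 by edgeR or DESeq2 and 1 of 9 after ComBat-seq, beside 10.5% of all genes by edgeR. Leaving out 1 mouse gave 0 to 2 of 9, with 2 without Water 3. On the log2 scale the fold change was positive for 4 genes and negative for 5, with a median of −0.0065 beside 0.0022 over all genes. *Nr3c2* and *Hsd11b1* were the 2 genes with the same sign in both batches.

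*Nr3c2* had the smallest p of the 9 by edgeR in this comparison. It had 54.4, 57.4, 57.5 and 52.0 CPM in first-batch Water and 48.4, 58.7 and 50.1 CPM in first-batch Chronic mice. In the second batch it ranged from 51.2 through 58.3 to 60.1 CPM in Water and from 50.9 through 53.6 to 58.2 CPM in Chronic mice. The groups overlapped, with 7 of 9 Chronic mice below the Water mean of their batch. The estimated log2 fold change was −0.075 ± 0.038 (95% interval −0.15 to 0.0028; adjusted p = 0.495 by edgeR; exact permutation p = 0.0626), and it was −0.082 and −0.077 in the batches. *Nr3c1* had −0.051 ± 0.036 (95% interval −0.12 to 0.024), with batch differences of 0.0041 and −0.081.

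*Hsd11b1* was the gene with the largest fold change, and it too failed the test. Its first-batch values were 4.16, 4.75, 5.04 and 3.32 CPM in Water and 3.76, 4.57 and 4.89 CPM in Chronic mice. In batch 2 it ranged from 2.81 through 3.36 to 4.43 CPM in Water and from 3.64 through 4.16 to 5.07 CPM in Chronic mice. All but 1 of the second-batch Water mice lay below every Chronic mouse of that batch, while the first-batch Chronic mice all lay within the Water range. The fitted log2 fold change was 0.20 ± 0.12 (95% interval −0.033 to 0.44; adjusted p = 0.551 by edgeR; exact permutation p = 0.0582), with 8 of 9 Chronic mice above the Water mean.

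The other 7 genes had opposite signs in the batches, and the difference between batches had the smallest p for *Sgk1* and *Tsc22d3*. *Sgk1* stood at 48.1, 41.0, 46.9 and 60.1 CPM in first-batch Water and at 53.2, 45.5 and 67.3 CPM in first-batch Chronic mice, and in the second batch it ranged from 36.8 through 40.2 to 43.5 CPM in Water and from 29.95 through 34.1 to 39.0 CPM in Chronic mice. Thus the Chronic mean was higher in batch 1 (log2 difference 0.17) and lower in batch 2 (−0.24). *Tsc22d3* had 29.3, 27.9, 28.2 and 29.7 CPM in first-batch Water and 35.5, 33.4 and 36.1 CPM in first-batch Chronic mice, without overlap. It was the only one of the 9 to separate, beside 4.56% of all genes there and 0.775% among second-batch mice. In the second batch it ranged from 25.1 through 26.2 to 29.6 CPM in Water and from 22.7 through 26.6 to 28.9 CPM in Chronic mice, where the groups overlapped and 2 Chronic mice lay below every Water mouse. The log2 differences of *Tsc22d3* were 0.28 and −0.032. Over both batches *Sgk1* had a log2 fold change of −0.078 ± 0.093 (95% interval −0.27 to 0.11) and *Tsc22d3* one of 0.089 ± 0.061 (−0.035 to 0.21).

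The difference between batches was itself tested as an interaction. It had an unadjusted p under 0.05 for 2 of 9 genes in the Chronic comparison, *Sgk1* (second minus first batch −0.41 ± 0.18, p = 0.0345) and *Tsc22d3* (−0.31 ± 0.11, p = 0.0117), beside 6.15% of all genes by edgeR. After adjustment over all genes neither passed (adjusted p = 0.789 and 0.774 by edgeR). In the Acute comparison the interaction had p under 0.05 for 0 of 9 genes, beside 4.13% of all genes. The batches are cohorts of mice bought separately, and what differed between them cannot be told apart.

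All 9 intervals held 0 in the Chronic comparison, those of the remaining 4 genes included. *Cdkn1a* had a log2 fold change of 0.098 ± 0.077 (95% interval −0.060 to 0.26), *Fkbp5* −0.0065 ± 0.045 (−0.099 to 0.086), *Pdk4* 0.0084 ± 0.090 (−0.18 to 0.19) and *Sult1a1* −0.10 ± 0.14 (−0.39 to 0.19). *Cdkn1a* had 0.042 without Chronic 4, and *Sult1a1* −0.030 without Water 43. For *Pdk4* 1 first-batch Chronic mouse reached 13.8 CPM, against a range of 5.99 to 10.3 CPM in the other 8 Chronic mice. *Fkbp5* read 32.4 ± 3.83 CPM in Chronic (SD, n = 9) and 32.1 ± 2.31 CPM in Water mice (SD, n = 10).

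The third comparison set the drinking groups against each other. edgeR called 0 of 9 (adjusted p between 0.998 and 1), and 0% of all genes, and DESeq2 called 0 of 9 with and without ComBat-seq. At an unadjusted p under 0.05 there were 2 of 9, *Sgk1* and *Sult1a1*, both with the lower mean in Chronic mice, beside 4.44% of all genes (1.95% higher and 2.5% lower). These are values of the same Acute and Chronic mice as above, so the 3 comparisons are not independent. No gene of the 9 separated these groups in either batch, beside 6.21% of all genes in the first and 0.4% in the second.

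*Sult1a1* gave the largest difference of any gene of the list in any comparison. In the first batch Chronic mice had 3.71, 3.002 and 4.10 CPM against 5.98, 3.13, 4.93 and 5.45 CPM in Acute mice. In batch 2 Chronic mice ranged from 3.07 through 3.41 to 4.34 CPM against 3.96, 5.55, 4.31, 6.58 and 3.61 CPM in Acute mice. All 9 Chronic mice lay below the Acute mean of their batch, although the groups overlapped. Its log2 fold change was −0.42 ± 0.14 (95% interval −0.71 to −0.12; p = 0.00707 unadjusted and 0.998 adjusted by edgeR; exact permutation p = 0.0136), a ratio of 0.75, and the batch differences were −0.40 and −0.39.

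*Sgk1* had 53.2, 45.5 and 67.3 CPM in first-batch Chronic mice against 78.5, 45.1, 53.8 and 56.4 CPM in Acute mice, and 29.95 through 34.1 to 39.0 CPM in second-batch Chronic mice against 36.9, 43.8, 49.5, 43.5 and 48.1 CPM in Acute mice. In the second batch only the lowest Acute mouse lay within the Chronic range, whereas the first-batch groups were mixed. On the log2 scale the fold change was −0.26 ± 0.095 (95% interval −0.46 to −0.068; p = 0.00994 unadjusted and 0.998 adjusted by edgeR; exact permutation p = 0.0383), with 8 of 9 Chronic mice below the Acute mean and batch differences of −0.067 and −0.37. For the receptors the 95% intervals of the difference were −0.046 to 0.11 for *Nr3c1* and −0.083 to 0.078 for *Nr3c2*.

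Mice of 1 group and batch also differed among themselves, and 2 pairs of the 9 genes were correlated across mice. Correlations were computed on log2 CPM after the mean of each group and batch was removed, over 28 mice, with permutation within groups and batches. Of 36 pairs, 2 passed at an adjusted p under 0.05 and 5 had p under 0.05 before adjustment. *Tsc22d3* and *Sult1a1* varied together (Pearson's r = 0.653, permutation p = 0.00097, adjusted p = 0.0175; Spearman's rho = 0.591, adjusted p = 0.0403). Without the 2 mice farthest from the median of *Tsc22d3* r was 0.554, and batch by batch it was 0.756 (11 mice) and 0.582 (17 mice). *Nr3c2* and *Cdkn1a* went in opposite directions (r = −0.571, permutation p = 0.00042, adjusted p = 0.0151; rho = −0.625, adjusted p = 0.00504). Without the 2 farthest mice r was −0.546, and batch by batch it was −0.303 and −0.727.

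*Sgk1* and *Tsc22d3* had r = 0.605 (rho = 0.523, permutation p = 0.0046, adjusted p = 0.0552), with 0.866 and 0.341 in the batches. Without the 2 farthest mice r was 0.382, so the relation rests in part on those mice. *Sgk1* and *Sult1a1* had r = 0.480 (rho = 0.347, permutation p = 0.0275, adjusted p = 0.198), with 0.781 and 0.131 in the batches and 0.320 without the 2 farthest mice. *Cdkn1a* and *Pdk4* had r = −0.404 (rho = −0.325, permutation p = 0.0202, adjusted p = 0.182), with −0.351 and −0.510 in the batches and −0.229 without the 2 farthest mice. *Fkbp5* had an adjusted p of at least 0.294 with each of the other 8 genes, its highest r being 0.464 with *Cdkn1a* (rho = 0.402, permutation p = 0.056). The 2 receptors had r = −0.213 with each other (rho = −0.253, permutation p = 0.279, adjusted p = 0.536).

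**Figure D3:**
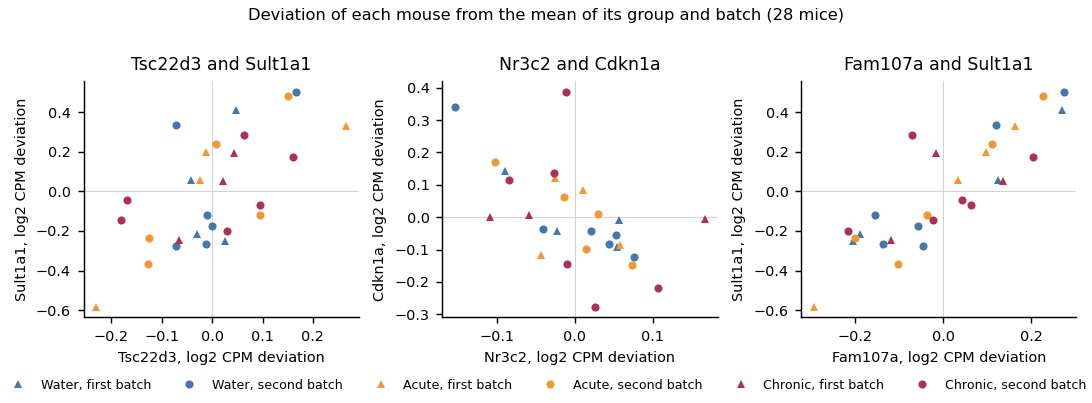
Deviations of log2 CPM from the mean of each mouse's group and batch, 1 point per mouse (28 mice), for *Tsc22d3* and *Sult1a1* (r = 0.653), *Nr3c2* and *Cdkn1a* (r = −0.571) and *Fam107a* and *Sult1a1* (r = 0.862). Colours are drinking groups and shapes are batches.

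Some other glucocorticoid-induced genes ranked near the top or the bottom of all genes tested by their likeness to the 9. *Fam107a*, which encodes an actin-associated protein induced by stress hormones, ranked 1 of all genes tested for *Sult1a1* (r = 0.862 over 28 mice, 0.924 and 0.815 in the batches). *Plin4*, a lipid droplet protein, was at rank 19 with r = 0.618 (0.72 and 0.55 in the batches). *Arrdc3*, an arrestin-like adaptor, was at rank 7 for *Tsc22d3* with r = 0.706 (0.85 and 0.63 in the batches). *Nfkbia*, the inhibitor of NF-kappaB, was at rank 18 for *Sgk1* with r = 0.703 (0.87 and 0.49). Toward the bottom, *Klf15* was at rank 16204 for *Cdkn1a* (r = −0.614, with −0.32 and −0.74 in the batches). *Nfkbia* was at rank 16009 for *Nr3c2* (r = −0.486, with −0.58 and −0.40). *Mt1* was at rank 15916 for *Nr3c1* (r = −0.509, with −0.13 and −0.65). These genes belong to the list of 30 other glucocorticoid-induced genes described below, and they were singled out after their values were seen. Over that whole list the median r with *Sgk1* was 0.229 (0.017 over all genes), with *Tsc22d3* 0.196 (0.018), with *Fkbp5* 0.10 (0.0080), with *Sult1a1* 0.079 (0.0051) and with *Pdk4* 0.052 (0.00092). It was negative for the other 4, at −0.10 with *Nr3c2* (−0.0032), −0.084 with *Nr3c1* (−0.015), −0.058 with *Cdkn1a* (0.0015) and −0.017 with *Hsd11b1* (0.0086). All these values share libraries and are given as a description.

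The 5 closest genes are named for 5 of the 7 response genes, the rule having left out *Hsd11b1* and *Sult1a1*, and for these 5 they held none of the 9 and no gene of the pathway lists. For *Fkbp5* they were *Ncs1*, *Exog*, *Atg4b*, *Nudt10* and *Camk1g*, with r between 0.692 and 0.772 over 28 mice. For *Sgk1* they were *Snx6*, *Bphl*, *Maob*, *Gstcd* and *Lpin3* (0.738 to 0.757), and for *Tsc22d3* *Gm21984*, *Lman2*, *Trip4*, *Rin2* and *Smtn* (0.726 to 0.748). For *Pdk4* they were *Mospd2*, *Gk5*, *Gpc6*, *Erap1* and *Naaladl2* (0.713 to 0.755). Among these 5 response genes *Cdkn1a* had the closest neighbours, *Fbxo28*, *Dnajb5*, *Islr2*, *Rims4* and *Mapk14* (0.767 to 0.825).

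Punches can differ in the cells they hold, so the genes were set beside 13 marker lists. None of the 117 relations passed adjustment, and 16 had p under 0.05 before it. The smallest p values were for the following relations. *Sgk1* and the astrocyte list had r = 0.717 (rho = 0.628, permutation p = 0.00143, adjusted p = 0.0837; 0.579 without the 2 farthest mice; 0.790 and 0.599 in the batches). *Cdkn1a* and the list of pallial excitatory neurons had r = 0.472 (rho = 0.534, permutation p = 0.00084, adjusted p = 0.0837; 0.415 without the 2 farthest mice; 0.601 and 0.504 in the batches). For *Nr3c2* and the same list r was −0.602 (rho = −0.603, permutation p = 0.00514, adjusted p = 0.20; −0.724 without the 2 farthest mice; −0.544 and −0.667 in the batches). *Tsc22d3* and the oligodendrocyte list had r = 0.57 (rho = 0.517, permutation p = 0.0111, adjusted p = 0.25; 0.407 without the 2 farthest mice; 0.503 and 0.643 in the batches).

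Between groups 0 marker genes were called by edgeR or DESeq2 in any comparison. In the astrocyte list 3 of 8 genes had an unadjusted p under 0.05 with a higher mean in Acute mice, beside 5.07% of all genes. The median log2 fold change of that list was 0.013, and its summed level was 1431 to 1552 CPM in Water and 1443 to 1632 CPM in Acute mice. Markers of oligodendrocyte precursors had 2 of 5 genes at p under 0.05 with a higher mean in Acute mice, at a list median of 8.4e-05 on the log2 scale. For pallial excitatory neurons 1 of 6 genes had p under 0.05, with a lower mean in Acute mice (4.45% of all genes), and sums ran from 1224 to 1885 CPM in Water, 944 to 1839 CPM in Acute and 1103 to 1851 CPM in Chronic mice. Oligodendrocyte sums covered 1258 to 3250 CPM in Water, 1640 to 3268 CPM in Acute and 1827 to 3156 CPM in Chronic mice, with 0 of 9 genes at p under 0.05 in either comparison with Water. Of the striatum markers 2 of 6 had p under 0.05 with a lower mean in Chronic than in Water mice, beside 5.65% of all genes, and 0 of 6 between Chronic and Acute mice. The median log2 fold change of that list was −0.37 in both comparisons. Its sums had a median of 973 CPM in Water (390 to 1518), 922 CPM in Acute (500 to 1180) and 653 CPM in Chronic mice (458 to 997). Central amygdala markers were present in every mouse (sums of 328 to 436 CPM over the 5 genes *Prkcd*, *Tac2*, *Sst*, *Calcrl* and *Dlk1*). Choroid plexus markers, from tissue outside the amygdala, ran from 121 to 6518 CPM, as widely within each group as between groups. The part of these markers in the results above was not tested.

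**Figure D4:**
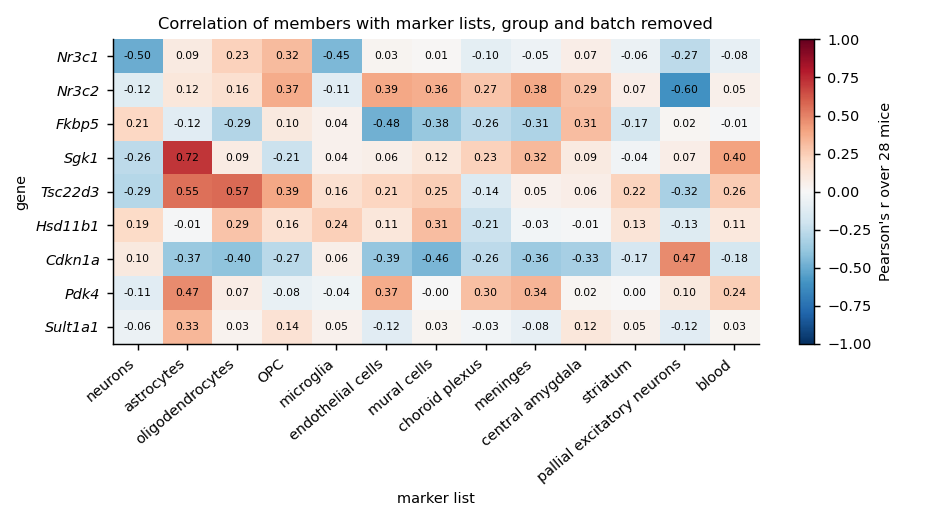
Pearson's r (colour and printed value, −1 to 1) of the 9 genes with 13 marker lists over 28 mice, with group and batch means removed. The highest is *Sgk1* with astrocytes (0.717) and the lowest *Nr3c2* with pallial excitatory neurons (−0.602), and none of the 117 had an adjusted p under 0.05.

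The wider pathway was read from 4 lists, of which 71 of 78 genes were tested. edgeR called 0 of the 71 in all 3 comparisons. As a background for the signs below, 50.56% of all genes had a positive log2 fold change in Acute and 51% in Chronic against Water mice. DESeq2 called 1 in each comparison with Water, beside 9 (Acute) and 38 (Chronic) of all 16266 genes. After ComBat-seq it called 2 in Acute mice, *Mt1* and *Nfkbia*, and 6 in Chronic mice, *Hspa4*, *Med1*, *Nrip1*, *Sin3a*, *Hdac2* and *Mt1*, beside 30 and 88 of 16295 genes. The study picked *Nfkbia*, *Mt1*, *Med1*, *Hspa4*, *Sin3a* and *Hdac2* from these mice, so their values here are not independent evidence.

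Receptor chaperones, which fold the receptor and hold it ready for hormone, gave small differences. In Acute mice 9 of 12 had a positive log2 fold change (median 0.020) and 1 had p under 0.05 (9.52% of all genes), *Hspa4* with −0.049 ± 0.023 (adjusted p = 0.502 by edgeR). The next smallest p values belonged to *Hspa8* (−0.011) and *Ptges3* (−0.013) on the lower side, and to *Ppp5c* (0.056), *Bag1* (0.046) and *Hspa1a* (0.12) on the higher side. In Chronic mice 6 of 12 were positive (median 0.0031) and 2 had p under 0.05 (10.5% of all genes), with *Hspa4* at −0.073 ± 0.023 (p = 0.00361, adjusted p = 0.241; below the Water mean in 9 of 9 mice) and *Hspa1a* at 0.18 ± 0.081 (p = 0.0346, adjusted p = 0.434). *Dnajb1* had 0.11 and *Hspa1b* 0.14, while *Hsp90aa1* had −0.036 and *Hspa8* −0.047.

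Coregulators, the proteins that the bound receptor recruits, had mostly negative fold changes in both comparisons with Water, which share the Water mice. In Acute mice 15 of 16 had a negative log2 fold change (median −0.064), and 5 had p under 0.05, all lower, beside 4.45% of all genes. *Nrip1*, a corepressor, had −0.17 ± 0.049 and *Med1*, a Mediator subunit, −0.12 ± 0.033, each below the Water mean in 9 of 9 mice (adjusted p = 0.384 and 0.327 by edgeR), and *Ncor1* had −0.086 ± 0.035. *Carm1* was the 1 positive member at 0.038. In Chronic mice 13 of 16 were negative (median −0.057), again 5 with p under 0.05 and all lower, beside 5.65% of all genes. Those 5 include *Med1*, *Sin3a* and *Hdac2*, which the study had picked from these mice. *Nrip1* had −0.18 ± 0.049 (adjusted p = 0.214), *Med1* −0.13 ± 0.033 (adjusted p = 0.181) and *Sin3a* −0.12 ± 0.031 (adjusted p = 0.192), whereas *Carm1* (0.046) and *Hdac3* (0.0082) were positive. *Med1* also had an adjusted p of 0.0428 by DESeq2 with batch as a covariate in Chronic mice.

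Genes of steroid metabolism and transport gave little. In Acute mice 5 of 13 were positive (median −0.0094) and 1 had p under 0.05 (9.52% of all genes), *Cyp11a1*, the enzyme that starts steroid synthesis, with −0.36 ± 0.17 at a mean of 1.21 CPM (adjusted p = 0.513 by edgeR). *Abcb1b* (−0.17), *Abcc1* (−0.061), *Hsd3b2* (0.096), *Fdx1* (0.094) and *Ipo13* (0.027) had larger p values. In Chronic mice 5 of 13 were positive (median −0.011) and 0 had p under 0.05 (10.5% of all genes), with *Cyp11a1* (−0.23), *Abcb1a* (−0.045) and *Hsd3b2* (−0.057) lower and *Srd5a1* (0.038), *Akr1c14* (0.14) and *Tspo* (0.11) higher.

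The 30 other glucocorticoid-induced genes had mostly positive fold changes in Acute mice. There 22 of 30 had a positive log2 fold change (median 0.041), beside 50.56% of all genes. Of the 30, 4 had p under 0.05 with a higher mean (5.07% of all genes) and 1 with a lower mean (4.45%). *Nfkbia* had 0.26 ± 0.060 (p = 0.000185 by edgeR, adjusted p = 0.194, and 0.0486 by DESeq2). Its level was 16.5 ± 1.55 CPM in Acute (SD, n = 9) and 13.8 ± 1.39 CPM in Water mice (SD, n = 10). The metallothionein *Mt1* had 0.19 ± 0.051 (adjusted p = 0.348) and *Arrdc2* 0.22 ± 0.069 (adjusted p = 0.384), and all 3 were above the Water mean in 9 of 9 Acute mice. *Per1*, a clock gene that glucocorticoids also induce, had −0.14 ± 0.052 (adjusted p = 0.457), below the Water mean in 9 of 9 mice, and *Zbtb16* (−0.13) and *Tle3* (−0.13) were lower with larger p values.

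In Chronic mice 16 of the 30 were positive (median 0.019), and 4 had p under 0.05, all higher, beside 4.81% of all genes. *Mt1* had 0.18 ± 0.051 (adjusted p = 0.222 by edgeR and 0.0188 by DESeq2 after ComBat-seq), *Nfkbia* 0.20 ± 0.060 (adjusted p = 0.239) and *Fzd1* 0.16 ± 0.072 (adjusted p = 0.44). *Per1* had −0.11, *Sgk3* −0.17 and *Plin4* −0.31 ± 0.21 with adjusted p between 0.478 and 0.621. *Nfkbia* and *Per1*, both glucocorticoid-induced, had opposite signs in both comparisons with the same Water mice.

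**Figure D5:**
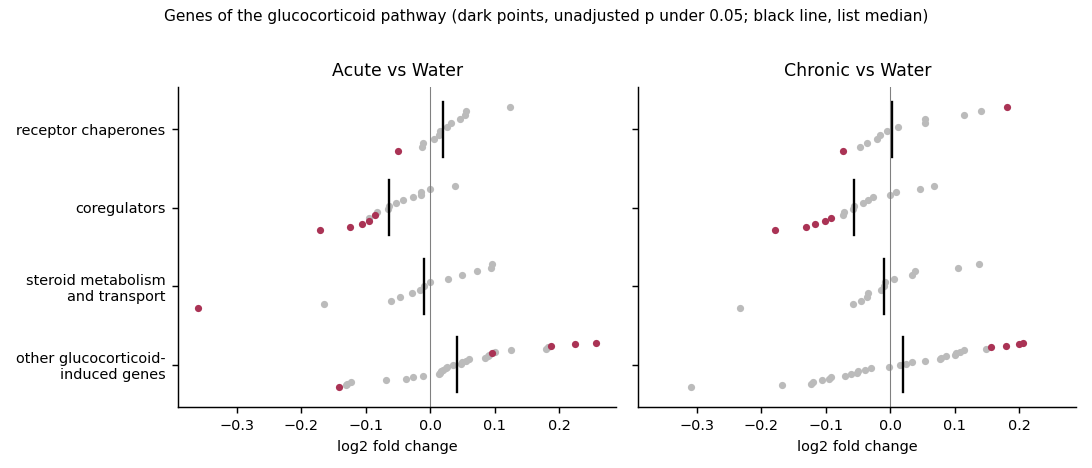
Log2 fold changes of the 71 tested genes of the 4 pathway lists in Acute and Chronic against Water mice, 1 point per gene, with dark points at an unadjusted p under 0.05 and black lines at list medians. Coregulators lie mostly below 0 (15 of 16 and 13 of 16), and the other glucocorticoid-induced genes spread over both signs. Of all genes tested 50.56% and 51% lie above 0.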

How the data were processed

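Amygdala RNA of 28 mice was sequenced by the authors in 2 batches. Paired-end reads were quantified with Salmon 0.14.1 on GRCm38 transcripts and summarized by gene (GENCODE M21), and the deposited values are whole-number counts per gene and mouse, before batch adjustment. Quality was checked with FastQC 0.11.8, per the labels. The tables shared 49477 genes, of which 16266 with a mean of at least 10 counts were tested.

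The counts were analysed in R 4.3.3 with edgeR 4.0.16 (quasi-likelihood test, TMM, group and batch as terms, all 28 mice in 1 fit), with Benjamini-Hochberg adjustment over all genes tested and a threshold of 0.05. DESeq2 1.42.0, sva 3.50.0 (ComBat-seq), RLE, other filters, each batch alone and each mouse left out were alternatives. Exact tests used log2 CPM (prior count 2) with batch means removed, and every regrouping within batches. Correlations used 100000 permutations. The scripts were tested on simulated data. None of the 55 pairs of libraries within a group and batch agreed within counting noise. The genes and lists were chosen with earlier results of these data known, and all 9 genes, the 3 smallest p values per direction in each list and the 5 closest genes by r were named, except 1 that is not reported here. All 9 genes were in both tables, so none had to be read in the second batch alone.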

Additional observations from a re-analysis of the deposited data

Results flagged for a closer look

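Of 27 sets of values tested for a far sample (9 genes in 3 groups, log2 CPM with batch means removed), 2 held one, and chance gives about 1 in 20. *Tsc22d3* was highest in Water 1, a second-batch mouse with 29.6 CPM, whose gap to the next mouse made up 0.469 of the group's range, just past Dixon's limit for 10 mice. *Pdk4* was highest in Chronic 39, a first-batch mouse with 13.8 CPM, with a gap of 0.508 of the range, past the limit for 9 mice. Without this mouse the log2 fold change of *Pdk4* in Chronic against Water mice was −0.081, and with it 0.0084.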

How the results depend on the processing

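None of the 9 genes was called under any alternative that gave it an adjusted p, the 28 fits without 1 mouse included. DESeq2 gave *Hsd11b1*, *Cdkn1a*, *Pdk4* and *Sult1a1* no adjusted p in the comparisons with Water (after ComBat-seq, in Chronic against Water only), and a minimum of 100 counts tested 7 of the 9. Counts over all genes moved more. For Acute against Water DESeq2 with batch as a covariate called 9, ComBat-seq then DESeq2 30 and no filter 1 in place of 0. For Chronic against Water the same tools called 38 and 88 in place of 3, and the first batch alone 0. For Chronic against Acute no filter called 1 in place of 0. Leaving out each mouse gave 0 to 2 (Acute; 2 without Chronic 38, 1 without Acute 34), 2 to 6 (Chronic; 6 without Water 3) and 0 (between the drinking groups). The interaction in Chronic mice was called for 1 gene, and for 0 with RLE or no filter. RLE moved the median of all genes by under 0.1.

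Of 27 log2 fold changes 13 changed sign somewhere. In the first batch alone these were *Fkbp5* in Acute (−0.013), *Nr3c1* (0.0013), *Sgk1* (0.17) and *Cdkn1a* (−0.040) in Chronic against Water, and *Tsc22d3* (0.034) and *Hsd11b1* (−0.14) in Chronic against Acute. In the second batch alone they were *Fkbp5* (0.038), *Tsc22d3* (−0.029), *Pdk4* (−0.12) and *Sult1a1* (0.040) in Chronic against Water, and *Nr3c1* (−0.0021), *Nr3c2* (0.049) and *Pdk4* (−0.10) in Chronic against Acute. ComBat-seq then DESeq2 gave *Pdk4* −0.030 in Chronic against Water and *Nr3c2* 0.0041 in Chronic against Acute. Leaving out 1 mouse reversed *Fkbp5* (−0.033 to 0.0089) and *Pdk4* (−0.081 without Chronic 39, to 0.042) in Chronic against Water, and *Nr3c2* (−0.021 to 0.021), *Hsd11b1* (−0.030 to 0.086) and *Pdk4* (−0.0052 to 0.12) in Chronic against Acute. Without a change of sign, leaving out 1 mouse moved *Sgk1* (0.12 without Acute 33) and *Pdk4* (−0.028 without Acute 35) in Acute against Water, and *Nr3c1* (−0.033 without Chronic 1), *Sgk1* (−0.15 without Chronic 39, −0.045 without Chronic 2), *Cdkn1a* (0.042 without Chronic 4) and *Sult1a1* (−0.030 without Water 43) in Chronic against Water by over 1.5 times, as it did *Tsc22d3* (−0.031 without Acute 33) and *Nr3c1* (0.018 without Acute 3) in Chronic against Acute. The cause was not tested.

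Pairs of genes correlated at an adjusted p under 0.05 numbered 2 with Spearman's rho, RLE or a prior count of 0.5, 2 in the first batch alone and 0 in the second. The first-batch pairs did not include *Nr3c2* and *Cdkn1a* (−0.303, adjusted p = 0.522) or *Tsc22d3* and *Sult1a1* (0.756, adjusted p = 0.171). With the replicate number of the second batch as a block, edgeR called 0, 3 and 0 genes and 0 of the 9. Same-numbered mice had correlations from −0.346 to 0.338 (4 of 16 pairs above 0.1), beside −0.364 to 0.422 for other-numbered mice (26 of 80 pairs above 0.1). Correlations of expression cannot show whether the numbers paired the mice in the design. Depth limits *Hsd11b1* (51 to 135 counts per mouse) and *Sult1a1* (54 to 138) more than *Nr3c1* (1756 to 2346).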
